A study of Homo sapiens with 6 samples.

Results

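Remote intergenic TTD peaks are the enriched regions of a UHRF1 tandem Tudor domain (TTD) pulldown that lie outside protein-coding genes and far from the start of any of them. A peak was included if it overlapped no protein-coding gene record of GENCODE release 44, contained no transcription start site (TSS) of a long noncoding RNA (lncRNA) gene, and had its nearer edge more than 100 kb from every protein-coding gene TSS. Of the 31569 peaks in the list, 4863 met this rule, which is 15.4% of the list and 16.9% of its covered bases. The peaks came from HepG2, a hepatoblastoma line of liver origin that was left untreated. Native mononucleosomes, released with micrococcal nuclease, were captured with GST-UHRF1-TTD (residues 126-280), a method called chromatin interacting domain precipitation (CIDOP), and sequenced in 2 biological replicates. The peaks were called once, on the mean of both replicates, so the list carries no peak height and no error between replicates, and HepG2 as a single line is the only cell model. H3K9me2 ChIP and input samples of the same untreated cells belong to the series and were not used here. The rule uses position alone, so base composition and motifs are measurements that it did not use. It acts on width and on lncRNA overlap as said beside those results, and spacing is linked to peak density.

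UHRF1 reads histone marks and hemimethylated DNA and brings DNMT1, the maintenance DNA methyltransferase, to replicated DNA. Its TTD binds the tail of histone H3 methylated at lysine 9, a mark of repressed chromatin, and the study asked whether monomethylated lysine 4, which is typical of enhancers, adds to this binding. Enhancers can act over long distances, and gene deserts are known to hold enhancers of developmental regulators. Gene deserts are also poor in GC, and much of their sequence is late replicating and heterochromatic.

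The central 300 bases of 4 remote peaks, in hg38 on the plus strand, are shown. They were chosen for great width, motif content, CpG ratio or distance and are not typical of the set. The first is the widest remote peak of chromosome 6, at chr6:137705751-137746550, 121 kb upstream of TNFAIP3, a brake on NF-kB signalling, and its centre (chr6:137726001-137726300) is 41.7% GC, holds a single CpG and matches none of the 6 motifs searched.
TNFAIP3 peak: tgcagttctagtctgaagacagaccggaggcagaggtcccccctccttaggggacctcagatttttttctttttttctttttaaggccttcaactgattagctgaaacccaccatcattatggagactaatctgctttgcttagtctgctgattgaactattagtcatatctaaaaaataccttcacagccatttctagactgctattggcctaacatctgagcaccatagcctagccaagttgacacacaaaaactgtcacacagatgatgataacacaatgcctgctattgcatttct
The second is the peak on chromosome 7 at chr7:34423511-34427700, 231 kb upstream of NPSR1, a neuropeptide receptor gene. It is 1 of 3 remote peaks with 4 different motifs in the centre (chr7:34425456-34425755), where capitals mark 1 match each to the FOXA, AP-1 and GATA motifs and 3 matches to the C/EBP motif.
NPSR1 peak: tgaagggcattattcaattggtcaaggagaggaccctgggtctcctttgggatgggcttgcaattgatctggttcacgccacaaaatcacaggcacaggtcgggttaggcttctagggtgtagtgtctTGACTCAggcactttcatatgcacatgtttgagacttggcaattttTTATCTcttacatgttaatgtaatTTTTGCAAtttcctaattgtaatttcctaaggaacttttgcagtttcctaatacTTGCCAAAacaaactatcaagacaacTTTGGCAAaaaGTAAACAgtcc
The third has the highest CpG observed/expected ratio of all remote peaks, 1.65, and lies at chr2:118303251-118304950, 215 kb downstream of INSIG2, which restrains sterol synthesis. Its centre (chr2:118303951-118304250) is a tandem repeat of only 31.0% GC, in which capitals mark the 9 CpG dinucleotides, 1 in each repeat unit.
INSIG2 peak: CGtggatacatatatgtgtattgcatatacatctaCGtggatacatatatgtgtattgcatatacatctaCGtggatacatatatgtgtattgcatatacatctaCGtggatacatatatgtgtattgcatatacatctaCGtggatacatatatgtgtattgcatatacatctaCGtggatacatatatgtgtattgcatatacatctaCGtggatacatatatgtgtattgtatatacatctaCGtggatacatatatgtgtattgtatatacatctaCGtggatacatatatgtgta
The last is the peak farthest from any protein-coding TSS, at chr22:10648971-10652410, 4876 kb upstream of OR11H1, an olfactory receptor gene. Its centre (chr22:10650541-10650840) has no motif match, and 95.9% of the 32-base words sampled from this peak occur again elsewhere in hg38, at a median of 7 copies.
OR11H1 peak: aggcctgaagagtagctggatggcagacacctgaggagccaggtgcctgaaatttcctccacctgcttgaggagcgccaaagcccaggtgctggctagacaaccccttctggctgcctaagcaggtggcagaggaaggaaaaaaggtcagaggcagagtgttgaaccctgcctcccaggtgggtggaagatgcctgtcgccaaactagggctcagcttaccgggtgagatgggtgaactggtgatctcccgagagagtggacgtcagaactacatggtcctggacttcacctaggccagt

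Remote peaks lay at a median distance of 213 kb from the nearest protein-coding TSS. Between 100 and 250 kb lay 2852 of them (58.6%), between 250 and 500 kb 1248 (25.7%), between 500 and 1000 kb 561 (11.5%), and beyond 1000 kb 202 (4.15%). The closest was 100046 bp away. At the border of the rule, 309 remote peaks stood at 100 to 110 kb with a median width of 2610 bp, and 352 intergenic peaks stood at 90 to 100 kb with a median width of 2350 bp. Of all 8985 peaks beyond 100 kb, 3949 were left out because they overlapped a protein-coding gene record and 173 because they contained an lncRNA TSS.

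TTD peaks were sparser in such sequence than in the rest of the genome. Sequence outside protein-coding genes and more than 100 kb from every protein-coding TSS, called remote territory here, made up 972 Mb or 33.1% of the genome. It held the midpoints of 5114 peaks of the whole list, remote or not, at 5.26 peaks per Mb against 13.5 per Mb elsewhere, a ratio of 0.391. Averaged over the 23 chromosomes with at least 10 remote peaks, the density was 5.28 per Mb in remote territory and 13.4 per Mb in the rest, a difference of -8.10 (SD 3.71 over chromosomes), and remote territory was lower on 23 of 23 chromosomes (sign-flip permutation test over chromosomes, two-sided, adjusted p = 4.4e-05). With the peaks pooled over replicates, this and the later p-values measure the spread between chromosomes and not between cultures.

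**Figure D1:**
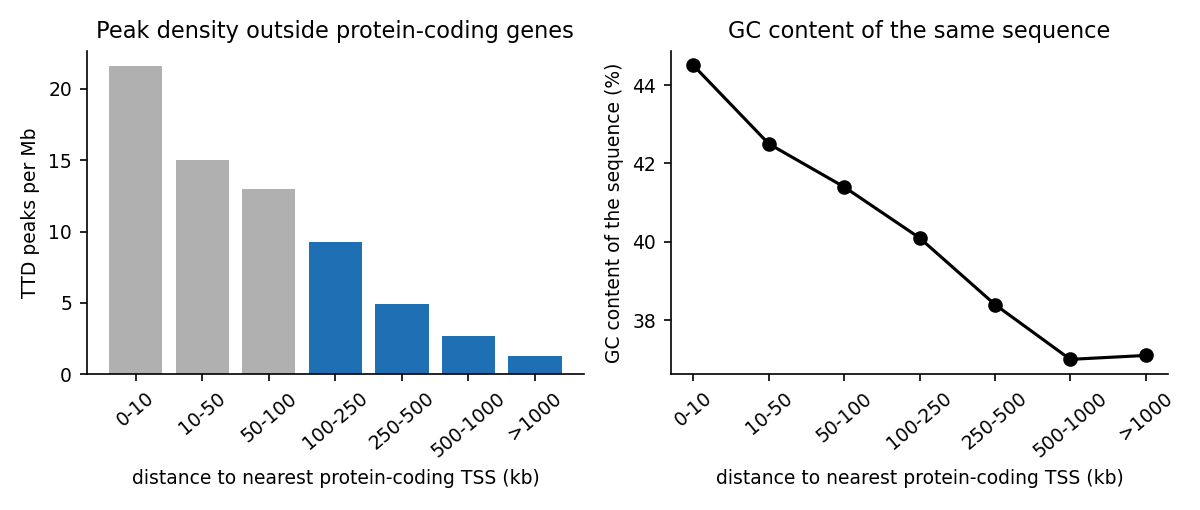
TTD peaks per Mb (left) and GC content in percent (right) of sequence outside protein-coding genes, by distance in kb to the nearest protein-coding TSS, with peaks placed by their midpoint. Blue bars are remote territory, where density goes from 9.27 per Mb at 100 to 250 kb down to 1.28 per Mb beyond 1000 kb.

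Within remote territory the density went on falling with distance. It was 9.27 peaks per Mb at 100 to 250 kb, 4.94 at 250 to 500 kb, 2.64 at 500 to 1000 kb and 1.28 beyond 1000 kb, compared with 21.6 per Mb of intergenic sequence within 10 kb of a TSS. By chromosome, the band at 100 to 250 kb averaged 9.41 per Mb and territory beyond 500 kb 1.98 per Mb, a difference of 7.43 (SD 3.45) in the same direction on 23 of 23 chromosomes (adjusted p = 4.4e-05, permutation test). GC content moved with distance as well, from 40.1% at 100 to 250 kb to 37.0% at 500 to 1000 kb. Windows of 10 kb were therefore sorted into 5 classes of GC content, and remote windows had fewer peaks in each. In the GC-poorest class remote windows had 1.89 peaks per Mb and other windows 5.79, in the middle class 6.12 against 14.3, and in the GC-richest class 12.1 against 15. Averaged over these classes, the difference by chromosome was -5.94 per Mb. Windows of 100 kb in which fewer than 50% of the 24-base words are distinct made up 6.24% of remote territory, and leaving them out gave 5.61 peaks per Mb, and 1.84 beyond 1000 kb.

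**Figure D2:**
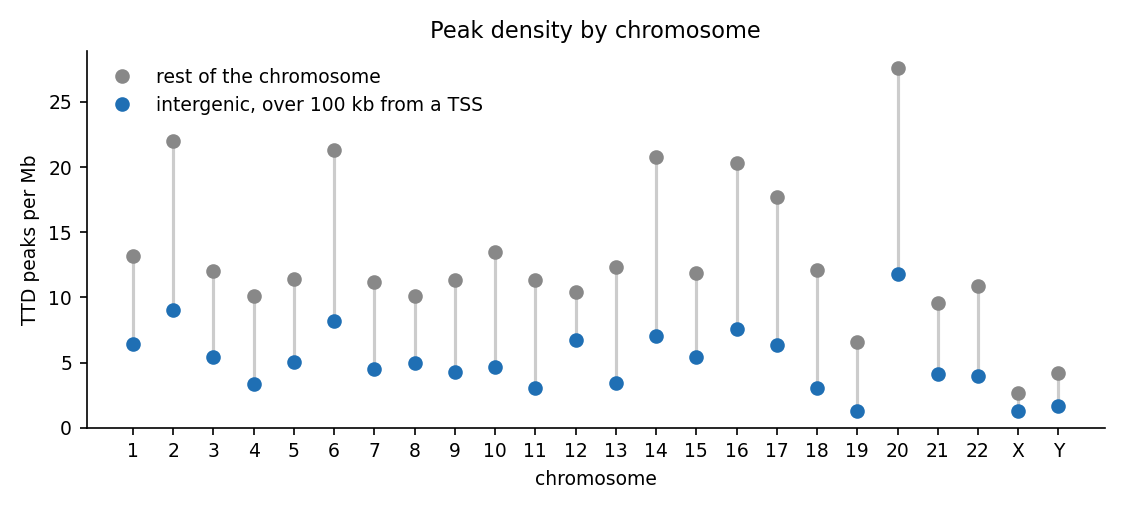
TTD peaks per Mb on each chromosome in remote territory (blue, intergenic and more than 100 kb from a protein-coding TSS) and in the rest of the chromosome (grey), by peak midpoint. The blue point is below the grey one on every chromosome plotted, and both are highest on chromosome 20.

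The plot of density by chromosome shows that remote and other peaks varied together in level. Remote territory held 11.8 peaks per Mb on chromosome 20, 9.04 on chromosome 2 and 8.17 on chromosome 6, but 1.30 on chromosome 19, 1.31 on X and 1.66 on Y. The rest of these chromosomes followed the same order at the top, with 27.6, 22 and 21.3 per Mb. HepG2 is known to carry extra copies of chromosomes 2, 14, 16, 17 and 20, and the part of copy number in these levels was not tested; without those 5 chromosomes the difference in density was -6.65 per Mb, still with an adjusted p of 7.3e-05 by the same test. Chromosome 2 alone held 750 remote peaks, 15.4% of the total. The share of a chromosome's peaks that were remote ran from 2.57% on gene-dense chromosome 19, with 9 of 350, to 39.7% on Y, with 27 of 68, although 20 of these 27 were mostly repeated sequence by the word counts given below.

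Remote territory was also compared with gene bodies at the same distance from a TSS, a comparison added after the first results were seen. Protein-coding gene bodies more than 100 kb from every protein-coding TSS, in effect the deep interior of long genes, covered 435 Mb and held 9.17 peaks per Mb. Averaged over chromosomes, the difference of remote territory from these gene bodies was -4.56 peaks per Mb (SD 3.36), and remote territory was lower on 21 of 23 chromosomes (p = 1e-05, the smallest the permutation test can give, not adjusted with the others).

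Taken as whole classes, remote peaks were broader than nearer intergenic and genic peaks by a small margin, and narrower than the 539 intergenic peaks over an lncRNA TSS, whose median width was 3590 bp. The median width of remote peaks was 2400 bp, with quartiles of 1410 and 3960 bp and a range of 150 to 47070 bp, against 2140 bp for 9554 intergenic peaks within 100 kb of a TSS and 2240 bp for 16613 peaks that overlap a protein-coding gene. For all peaks with their midpoint outside protein-coding genes, the median was 1860 bp within 10 kb of a TSS and 2400 bp at 50 to 100 kb. It was 2510 bp at 100 to 250 kb, 2310 bp at 500 to 1000 kb and 2170 bp beyond. Genic peaks more than 100 kb from every TSS had a median of 2340 bp. The mean over chromosomes of the median width was 2338 bp for remote peaks. It was 217 bp (SD 296) above nearer intergenic peaks, with remote peaks wider on 18 of 23 chromosomes (adjusted p = 0.00540, permutation test), and 194 bp (SD 288) above genic peaks, on 16 of 23 (adjusted p = 0.00746). In the same permutation test neither difference passed the threshold when the distance limit was 200 kb (65.7 bp, adjusted p = 0.583, and 109 bp, adjusted p = 0.230) or when neighbours under 1 kb apart were merged (159 bp, adjusted p = 0.0568, and 118 bp, adjusted p = 0.0817). A wide peak reaches a gene or a TSS more readily than a narrow one, so the rule itself acts on width; with classes set by the peak midpoint and no lncRNA filter the differences were 213 and 254 bp.

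**Figure D3:**
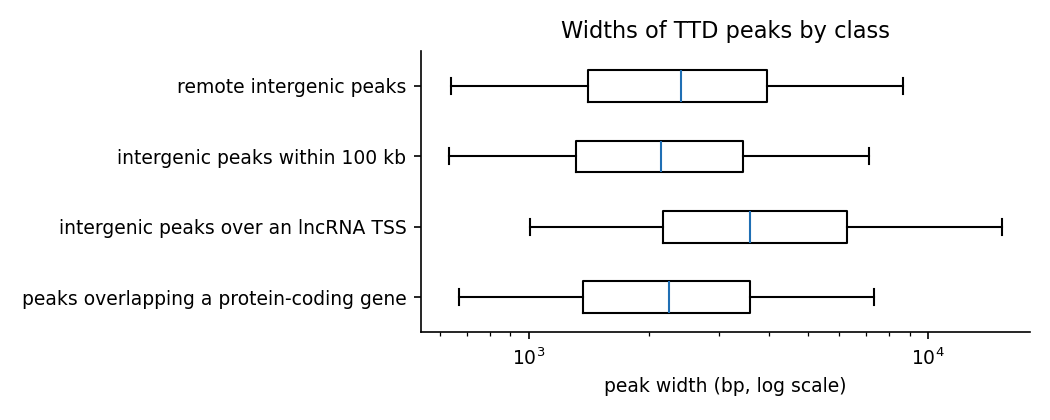
Peak width in bp on a log axis for the 4 classes of TTD peaks. Boxes run from the first to the third quartile with the median as a blue line, whiskers reach the 5th and 95th percentiles, and the remote class has a median of 2400 bp against 2140 bp for nearer intergenic peaks.

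The upper tail was compared as well. Of remote peaks, 167 were at least 10 kb wide, or 3.43% (95% Wilson interval 2.96 to 3.98, counting error only), compared with 1.72% (1.47 to 2.00) of nearer intergenic and 1.97% (1.77 to 2.2) of genic peaks, and with 12.4% (9.91 to 15.5) of intergenic peaks over an lncRNA TSS. The widest remote peak, 47070 bp, overlapped PVT1 on chromosome 8, 422 kb downstream of MYC, the growth-promoting transcription factor, and a second peak of 40300 bp lay 841 kb downstream of the same gene. The other 8 of the 10 widest had 8 different nearest genes. A peak of 31120 bp lay 240.1 kb upstream of FN1, which encodes the fibronectin that hepatocytes secrete into plasma, and overlapped LINC00607. A peak of 30600 bp lay 146 kb downstream of FOXA2, a pioneer factor of endoderm and liver, and one of 21050 bp lay 650.4 kb downstream of IRS1, the adaptor of the insulin receptor. The remaining 5 had widths of 40800 bp (121 kb upstream of TNFAIP3), 33040 bp (298 kb downstream of WDR72), 26000 bp (149 kb upstream of ELL2), 23210 bp (103 kb downstream of SNX5) and 21180 bp (1175 kb downstream of FLRT2).

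The spacing of remote peaks was compared with that of the other classes. Gaps are wider where peaks are sparse, so this comparison is not independent of the density result above. The median gap from a remote peak to the next TTD peak of any class was 12940 bp, compared with 7845 bp for nearer intergenic and 9690 bp for genic peaks, and 45.5% of remote peaks had a neighbour within 10 kb (Wilson interval 44.2 to 47.0) against 54.9% of nearer intergenic peaks (53.9 to 55.9). On the log2 scale, the median gap was larger for remote than for nearer intergenic peaks by 0.41 (SD 0.82), on 15 of 23 chromosomes (adjusted p = 0.0379, permutation test). The call was lost under 4 of 7 alternatives of that permutation test: the difference was 0.38 without chromosome 2 (adjusted p = 0.0620), 0.35 without chromosomes 2, 14, 16, 17 and 20 (adjusted p = 0.128), 0.37 with classes by midpoint (adjusted p = 0.0728), and it was -0.08 in the wider part of the list, from its median width of 2250 bp up (adjusted p = 0.789).

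Part of the remote peaks stood in groups, although a neighbour within 10 kb was less frequent than in the other classes. It was found for 45.5% of remote peaks, against 54.9% of nearer intergenic, 50.8% of genic and 61.0% of lncRNA TSS peaks. Runs were not counted for those classes. Joining remote peaks up to 10 kb apart gave 3501 runs, of which 2770 were single peaks (57.0% of members), while 72 runs of 5 or more peaks held 493 (10.1%). The largest run had 16 peaks over 117 kb (chr2:42905531-43022800), with 62.0% of the span inside peaks, and most of its peaks were nearest to HAAO, which encodes an enzyme of tryptophan breakdown. A run of 11 upstream of FN1 spanned 123 kb (chr2:215583881-215707310) and was 88.3% covered. Another run of 11, with IRF2BP2 as the nearest gene, was packed into 68.7 kb. A run of 10 had ZEB2, a repressor in epithelial-mesenchymal transition, as the nearest gene at more than 1 Mb, and another 2 runs of 10 had IRS1.

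The sequence far from genes was filled very unevenly. Remote territory fell into 2284 separate stretches, of which 1194 (52.3%) held at least 1 remote peak, and 177 stretches held 50% of them. The 10 fullest held 348 remote peaks, 7.16% of the total, in 1.22% of the territory. The stretch between NYAP2 and IRS1 (chr2:225729888-226699819) was the fullest with 44 peaks in 0.970 Mb, and 28.4% of it was inside peaks. The stretch between FN1 and MREG (chr2:215536074-215934095) had 32 peaks in 0.398 Mb and the highest coverage of the 10, 57.8%. The densest of the 10 was between IRF2BP2 and TOMM20 on chromosome 1, with 107 peaks per Mb, followed by FN1 to MREG with 80.4, and SOX9 to SLC39A11 on chromosome 17 held 34 peaks in 0.425 Mb. The other stretches among the 10 ran from MYC to GSDMC with 43 peaks, from RPS6KC1 to PROX1 with 35, from CITED2 to NMBR with 35, from SPRY1 to ANKRD50 with 31, from ZEB2 to ACVR2A with 31 and from RBMS3 to TGFBR2 with 29.

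The longest stretches held fewer peaks for their size than shorter ones. Stretches of 1 Mb or more, 270 in number, made up 55.7% of remote territory and had 2.52 remote peaks per Mb, compared with 8.13 per Mb in shorter stretches, which lie closer to genes throughout. Of these long stretches 46 (17%) had no remote peak. Among the longest empty ones, those between KCNJ18 and WSB1, ZXDA and SPIN4, and OR4C45 and OR4C46 were 72.4% to 81.8% repetitive by 100 kb window (blacklist overlap was not tested). Another was 3.96 Mb between NCAM2, a neural adhesion gene, and MRPL39 on chromosome 21, in which no window was repetitive. The next longest empty stretches without repetitive windows were 3.91 Mb between OLFM4 and PRR20A, 3.85 Mb between IGFBP7 and ADGRL3, 3.42 Mb between IFTAP and LRRC4C and 2.69 Mb between DIAPH2 and PCDH19. At the other end, SPRY1 to ANKRD50 was the densest of the long stretches with 27.8 peaks per Mb.

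Counting each remote peak for its nearest protein-coding gene, 1546 of 3449 genes with any remote territory (44.8%) had at least 1. Nearest here means distance along the chromosome and does not identify a target gene. MYC had the most with 40, spread from 161 to 912 kb from its TSS. IRS1 had 39, which covered 264 kb between 103 and 672 kb. SOX9, a factor of bile duct and progenitor cells, had 34, and TGFBR2, a receptor for TGF-beta, had 31. PROX1, which is needed for hepatocyte specification and migration, had 28, at 67.5 per Mb of its remote territory. ID2, an inhibitor of helix-loop-helix factors, had 26, THBS1, which encodes a secreted matrix glycoprotein, had 23, and CITED2, a transcriptional coregulator, and RAB28, a small GTPase, had 22 each. TPTE on chromosome 21 also had 26, but in 22 of them 50% or more of the sampled 32-base words recur elsewhere in hg38. Reads of near-identical copies may have been placed there, which was not examined, so these 26 are to be read with caution.

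**Figure D4:**
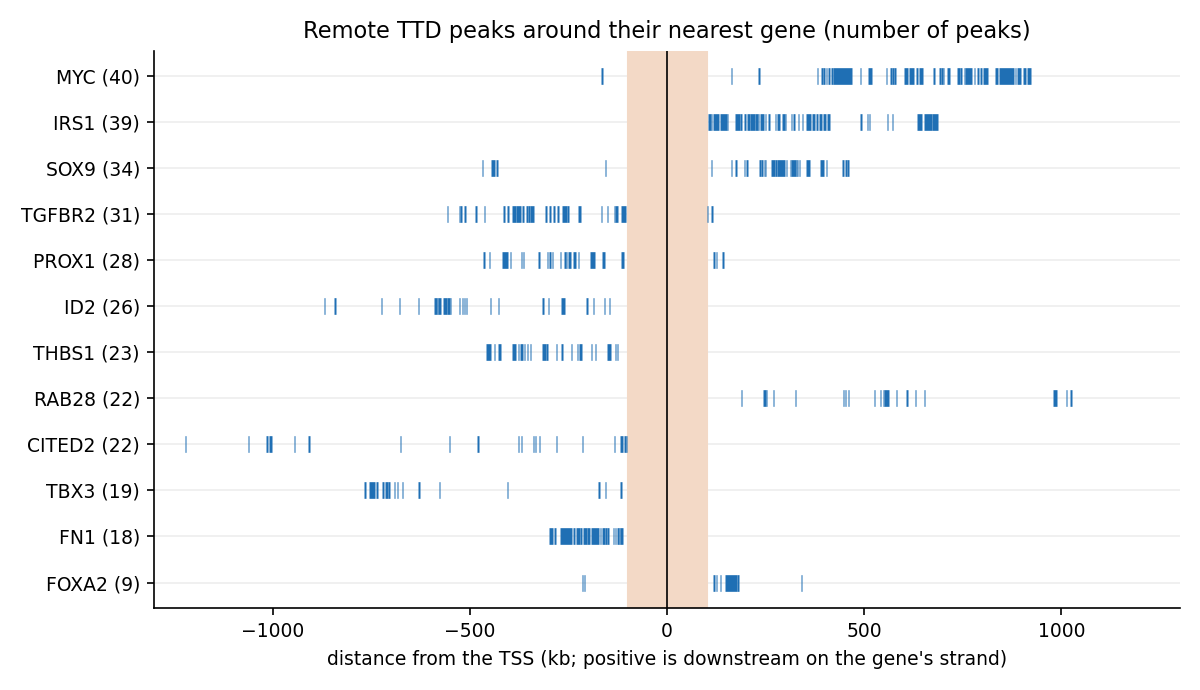
Remote TTD peaks around the gene they are nearest to, drawn to scale as blue blocks by distance in kb from the TSS (positive is downstream on the strand of the gene), with the number of peaks beside each name and the 100 kb on each side of the TSS shaded. The genes are those with most remote peaks, apart from TPTE, together with TBX3, FN1 and FOXA2, and the 18 peaks of FN1 all lie upstream while the 39 of IRS1 all lie downstream.

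The map of peaks around these genes shows the side on which the peaks lay, which depends on where each gene has remote territory; territory was not split by side. All remote peaks of IRS1 and RAB28 lay downstream of the TSS, all of FN1, THBS1, ID2, CITED2 and TBX3 upstream, and TGFBR2 and PROX1 had a few on the downstream side besides the main group upstream.

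A set of gene lists was compared with all genes by counts and density, as a description without a test. The lists were chosen with earlier results of these data known, so they are not independent of the peaks counted here. Of 25 liver transcription factors, 10 had remote territory and 9 were nearest to a remote peak, with 104 peaks or 21.8 per Mb (median per gene 22.6), compared with 44.8% of genes and 5.00 remote peaks per Mb (median per gene 0) over all genes. These were SOX9 with 34, PROX1 with 28, TBX3, a factor of hepatoblast growth, with 19, FOXA2 with 9, GATA6, an endoderm factor, with 6, ONECUT1, a regulator of liver and bile duct genes, with 4, CEBPB, a factor of the acute-phase response, with 2, and KLF6 and NR5A2 with 1 each. SOX9 and PROX1 thus account for most of this count. Of 38 genes of secreted liver proteins, 5 had any remote territory. Of these 5, 2 were nearest to a remote peak and 3 were not, with 38.9 peaks per Mb pooled and a median per gene of 0. FN1 had 18 peaks, 90.4 per Mb, and APOB, the main protein of very-low-density lipoprotein, had 1. Of 40 liver enzymes and transporters 5 had territory. CPS1, which starts the urea cycle, had 10 remote peaks, and ALDH1A1 and ARG1 had 2 and 1.

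Over all genes, 3449 of 20007 (17.2%) had remote territory, a smaller share than in the lists of developmental regulators and neuronal genes. Of 72 developmental transcription factors 62 had remote territory, 30.2 Mb in all, and 41 of them (66.1%) were nearest to a remote peak. Over all genes this share was 44.8%, with 972 Mb of territory for the 3449 genes. The pooled density was 5.03 per Mb against 5.00 for all genes, and the median per gene was 2.90 per Mb against 0. The leading members were NR2F1 with 18, FOXQ1 with 15 in only 0.209 Mb, SOX4 with 11 and BCL11A with 8, and 11 members had a single peak. Of 68 neuronal adhesion and synapse genes 62 had territory and 33 (53.2%) were nearest to a remote peak, at 1.38 per Mb over 71.6 Mb. A gene with more territory has more room for a remote peak, and the shares of both lists were not adjusted for that. LRRTM4 led with 13, followed by CDH6 and ROBO1 with 8 each, whereas PCDH7, a protocadherin gene, had 1 peak in 4.15 Mb.

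Remote peaks overlapped lncRNA genes more than their territory did. An lncRNA gene record overlapped 2031 of them (41.8%, Wilson interval 40.4 to 43.2), and 2722 (56.0%) overlapped no gene record of any kind. By chromosome, 42.1% of remote peak bases lay in lncRNA genes against 27.9% of the bases of remote territory, a difference of 14.3 percentage points (SD 10.4) that was positive on 21 of 23 chromosomes (adjusted p = 4.4e-05, permutation test). The rule removes peaks over lncRNA TSSs, and with all peaks whose midpoint is in remote territory the difference was 14.6 points. LINC00511, a gene of 350.4 kb between SOX9 and SLC39A11, overlapped 32 remote peaks. DLEU1 and LINC00299 overlapped 18 each and PKN2-AS1 19, while lncRNA genes known only by identifier reached 28 (ENSG00000258077 on chromosome 12) and 24 (ENSG00000251314 on chromosome 5). The 173 intergenic peaks beyond 100 kb that were set aside for holding an lncRNA TSS had a median width of 3850 bp, against 2400 bp for the remote peaks.

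A microRNA gene record lay under only 5 remote peaks, and the mature products found for 4 of them are shown because they are annotated short transcripts inside these regions (RefSeq, GRCh38.p14, seed bases 2 to 8 in capitals). MIR5702 lies in a peak of 18690 bp 134 kb from IRS1, MIR5197 in one of 2820 bp 130.4 kb from HMHB1, MIR135A2 in one of 16130 bp 653 kb from NEDD1 and MIR924 in one of 5350 bp 2053 kb from CELF4. No seed is shared among the 5 sequences printed.
hsa-miR-5702: uGAGUCAGcaacauaucccaug
hsa-miR-5197-5p: cAAUGGCAcaaacucauucuuga
hsa-miR-5197-3p: aAGAAGAGacugagucaucgaau
hsa-miR-135a-2-3p: aUGUAGGGauggaagccaugaa
hsa-miR-924: aGAGUCUUgugaugucuugc
The fifth gene was MIR3148, under a peak 120.5 kb from SARAF.

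Remote peaks stood out from their surroundings by GC content, and so did nearer intergenic peaks. GC content within 200 bp of the centre and at 4 to 5 kb was 43.1% and 40.5% for remote peaks. For nearer intergenic peaks it was 44.8% and 43.3%. Each remote peak was also compared with flanking sequence of its own on both sides, which was not done for nearer peaks. Averaged over chromosomes, GC content was 43.1% in remote peaks and 40.9% in their flanks, higher by 2.21 points (SD 0.659) on 23 of 23 chromosomes (adjusted p = 4.4e-05, permutation test), and 3383 of 4863 peaks (69.6%) exceeded their own flanks. Narrow peaks exceeded them most: the narrowest quartile, up to 1410 bp, averaged 44.5% against 40.6% in its flanks, and the widest, from 3970 bp, 41.3% against 40.2%. Compared with intergenic peaks nearer to genes, remote peaks were lower by 1.81 points (SD 1.17), on 21 of 23 chromosomes (adjusted p = 4.4e-05, permutation test), as is the sequence around them.

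The CpG observed/expected ratio, which allows for GC content, differed in the other direction. This ratio, which falls where methylated CpG has been lost over evolution, was 0.193 in remote peaks and 0.208 in their flanks, a mean difference of -0.0158 (SD 0.0162), and lower in the peaks on 21 of 23 chromosomes (adjusted p = 0.00027, permutation test). It was also below that of nearer intergenic peaks, 0.216, on 20 of 23 chromosomes (adjusted p = 0.00027, permutation test). A ratio of 0.6 or more, a usual mark of CpG islands, was reached by 27 remote peaks (0.555%), among them the tandem repeat near INSIG2 printed above.

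**Figure D5:**
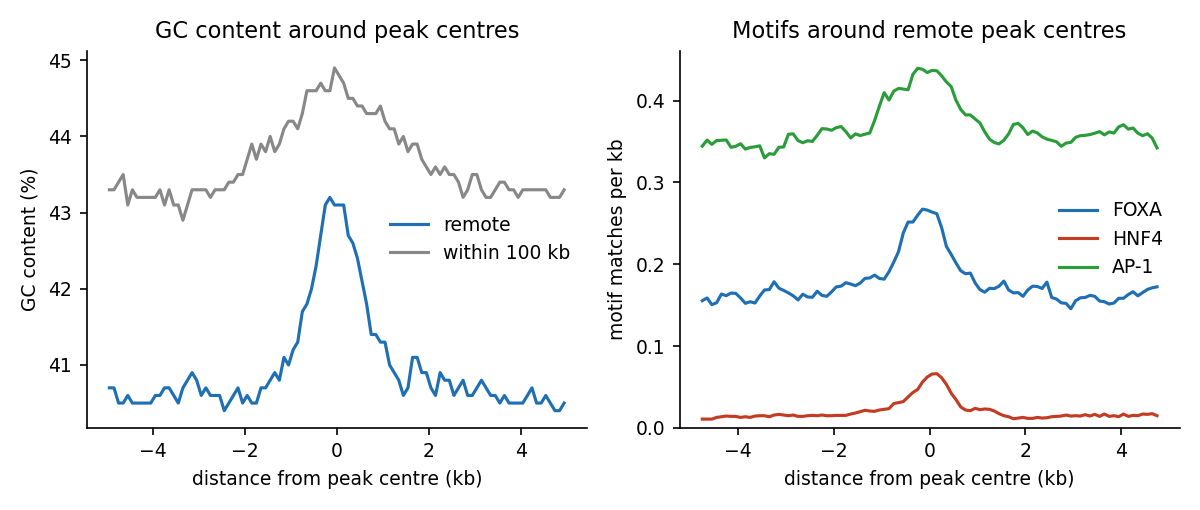
Left, mean GC content in percent in bins of 100 bp by distance in kb from the peak centre, for remote peaks (blue) and intergenic peaks within 100 kb of a TSS (grey). Right, matches per kb to the FOXA, HNF4 and AP-1 motifs around remote peak centres, averaged over 5 bins, all 3 of which are higher around the centre than at 4 to 5 kb.

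Motifs of 6 kinds of transcription factor that act in liver cells were searched on both strands in the central 300 bp of each peak and in windows of the same length in the flanks, with N standing for any base. The motifs were TGTTTAC for FOXA, CAAAGTCCA for HNF4, GTTAATNA for HNF1, TTGCNNAA for C/EBP, TGANTCA for AP-1 and AGATAA for GATA. A match is a run of letters and not a bound site, and 2445 remote peaks (50.3%) had none.

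Motifs of HNF4, FOXA and AP-1 were more frequent in the centres of remote peaks than beside them. HNF4, the main regulator of hepatocyte genes, had a match in 83 of 4863 centres (1.71%, Wilson interval 1.38 to 2.11) against 0.370% of flanking windows (0.268 to 0.512), and in 1.60% of all 31569 peak centres. By chromosome the difference was 1.09 points (SD 1.04), positive on 18 of 23 (adjusted p = 0.00032, permutation test). FOXA, the pioneer factors that open liver enhancers, matched in 362 centres (7.44%) against 4.79% of flanking windows and 6.23% of all peaks, a difference by chromosome of 2.12 points (SD 3.49) on 18 of 23 (adjusted p = 0.0119, permutation test), which was 2.08 points without chromosomes 2, 14, 16, 17 and 20 (adjusted p = 0.0576) and 1.06 among the wider peaks of the list (adjusted p = 0.230). AP-1, the stress and growth factor of JUN and FOS, matched in 598 centres (12.3%) against 9.03% of flanking windows and 11.2% of all peaks, a difference of 4.06 points (SD 3.11) on 20 of 23 (adjusted p = 7.3e-05, permutation test). The plot of motifs around peak centres shows the same 3 motifs by distance: HNF4 had 0.0643 matches per kb within 200 bp of the centre and 0.0138 at 4 to 5 kb, FOXA 0.268 and 0.164, and AP-1 0.432 and 0.351. GC content is also highest at the centre, 43.1% against 40.5% at 4 to 5 kb, and its part in the motif counts was not tested.

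For HNF1, C/EBP and GATA no difference from the flanks passed the test in windows of 300 bp. The differences by chromosome were 0.425 points for HNF1 (SD 2.1, adjusted p = 0.436, permutation test), -0.196 for C/EBP (SD 2.89, adjusted p = 0.749; 1.44 in windows of 600 bp, adjusted p = 0.0440) and -0.570 for GATA (SD 4.47, adjusted p = 0.597). C/EBP and GATA matched in 17.1% and 20.7% of remote centres and in 16.6% and 22% of flanking windows.

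Against intergenic peaks nearer to genes, the motifs separated differently. GATA matches were more frequent in remote centres by 2.88 points (SD 3.75), on 17 of 23 chromosomes (adjusted p = 0.00220, permutation test), and HNF1 matches by 0.986 points (SD 1.97), on 17 of 23 (adjusted p = 0.0379), which was 0.689 points (adjusted p = 0.231) with a limit of 200 kb, 1.06 (adjusted p = 0.0527) without chromosomes 2, 14, 16, 17 and 20 and 0.859 (adjusted p = 0.0667) with the 5′ ends of all protein-coding transcripts as TSSs. Both motifs are rich in A and T, remote peaks were poorer in GC than nearer peaks by the values above, and the part of composition was not tested. By the permutation test the difference for HNF4 was -0.126 points (SD 0.870, adjusted p = 0.570; 0.924 in windows of 600 bp, adjusted p = 0.0440), for FOXA 0.544 (SD 3.18, adjusted p = 0.518; 2.14 in 600 bp, adjusted p = 0.0387), for C/EBP 0.412 (SD 4.09, adjusted p = 0.665; 2.01 in 600 bp, adjusted p = 0.0440) and for AP-1 1.40 (SD 3.42, adjusted p = 0.0873; 2.16 with joined peaks, adjusted p = 0.0367).

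Sequence copies set a limit on the most distant peaks. Over all remote peaks a median of 6.54% of sampled 32-base words had another exact copy in hg38, compared with 12.1% for nearer intergenic peaks, and in 555 remote peaks (11.4%) the share was 50% or more, compared with 9.56% of nearer intergenic peaks. Beyond 1000 kb it was 43 of 202 (21.3%). All 5 peaks farthest from a TSS, 3626 to 4876 kb from OR11H1 on chromosome 22, had 68.1% to 95.9% of such words repeated. Their position may be uncertain for that reason, but how the longer sequenced reads were placed was not examined. Repeated words were counted for the peaks of 7 genes. Apart from TPTE, with a median of 68.6%, the median was 0.699% for PROX1, 3.48% for MYC, 6.37% for FN1, 6.67% for TGFBR2, 6.85% for IRS1 and 7.19% for SOX9.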

How the data were processed

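UHRF1-TTD CIDOP was sequenced from untreated HepG2 cells in 2 biological replicates. According to the labels and the methods of the study, the authors trimmed reads with Trimmomatic 0.38, checked them with FastQC 0.72, aligned them to hg38 with HISAT2 2.2.1 and computed coverage as RPKM per 10 bp bin, blacklist omitted (deepTools 3.3.2). They averaged both replicates, called broad peaks on the mean with MACS2 2.1.1 at fixed cutoffs, and removed blacklisted regions and curated the list by hand. The deposited list holds the start, end and width of each peak, with no score, count or p-value, so depth and replicate error are unknown, and a blacklisted or hand-removed region cannot be told apart from one without signal.

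The members and the gene lists were chosen with earlier results of these data known. Gene records were those of GENCODE release 44 (20033 protein-coding, 18866 lncRNA). Distances run from the peak edge to the TSS of the gene record. Densities place peaks by midpoint and count bases other than N. Values were computed per chromosome and compared by a two-sided sign-flip permutation test over chromosomes with at least 10 remote peaks and 10 peaks of the comparison class (100000 resamples, smallest p 1e-05), with Benjamini-Hochberg adjustment over the 22 main tests. Each alternative was adjusted over its own tests. These were fewer where only some results were run again, as for the motif windows of 600 bp, so adjusted p-values of the 2 windows are not on the same footing. The scripts were tested on simulated data. Shares carry 95% Wilson intervals, which cover counting error alone. Copies were counted from words of 32 bases taken every 20 bases, on both strands. The text names the 10 widest and 5 farthest peaks, the 10 genes and 10 stretches with most remote peaks, the 5 longest stretches without any, and members of the gene lists; some of these are not reported here. The empty stretches without repetitive windows were added afterwards, as were the gene body comparison and the copy counts. Alternatives changed the distance limit, the TSS set, the peak set, the class rule, the motif window and the chromosomes. A planned comparison of repeat share was not made because the genome used here does not mark repeats. Python 3.11.15, numpy 2.4.6, scipy 1.17.1 and pandas 2.3.3 were used.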

Additional observations from a re-analysis of the deposited data

How the results depend on the processing

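Of 188 alternative values, 159 kept the direction and the side of the threshold or the size of the reported value. The number of remote peaks was 7379 with a limit of 50 kb, 2631 with 200 kb and 763 with 500 kb, 2832 without any overlap with an lncRNA gene and 2608 among peaks at or above the median width. The lower density kept its call under every alternative run, from -9.25 to -3.62 peaks per Mb, and as percent of bases covered it was -2.03 points; the GC, CpG and lncRNA differences kept theirs as well. With a limit of 200 kb the width difference was 65.7 bp against nearer and 109 bp against genic peaks, and with peaks less than 1 kb apart joined 159 and 118 bp. The log2 gap lost its call at 0.35 without chromosomes 2, 14, 16, 17 and 20, 0.38 without chromosome 2, 0.37 with classes by midpoint and -0.08 among wider peaks. Motif differences from flanks that changed sign were HNF1 (-0.0627 points at 200 kb), C/EBP (0.350 with joined peaks, 1.44 in 600 bp) and GATA (0.112 joined). Those from nearer peaks were FOXA (-0.574) and C/EBP (-0.962) among wider peaks and HNF4 (0.135 joined, 0.924 in 600 bp). The cause of these changes was not tested. FOXA against nearer peaks was 2.14 points and C/EBP 2.01 in 600 bp, and AP-1 2.16 with joined peaks, each past the threshold there, as were the 2 values in 600 bp that changed sign, C/EBP against flanks and HNF4 against nearer peaks. No paired analysis was possible because the list pools both replicates, and no replicate could be left out for the same reason. Without counts, the depth behind a peak is unknown, and a stretch without peaks may hold signal below the cutoffs of the caller.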
